A study of Mus musculus with 6 samples.

Results

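The ubiquitin-specific (USP), OTU and ubiquitin C-terminal hydrolase (UCH) families hold most of the cysteine proteases that remove ubiquitin from proteins. Genes were taken by name, as protein-coding genes of the mouse annotation whose symbol starts with Usp and a digit, Otud, Otub or Uch. One match was left out by that rule, which left 69 genes of the 55414 gene identifiers in each count table. They are called deubiquitinase genes here, although 1 of them, Usp6nl, is named for a likeness to another protein and encodes a GTPase-activating protein for Rab5, not a protease.

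RNA sequencing was done on 6 preparations of acinar cells, which make and secrete the digestive enzymes of the pancreas, from untreated adult mice. The 3 control preparations were of genotype Pdx1Cre;Trip12+/+ and the 3 knockout preparations of genotype Pdx1Cre;Trip12fl/fl. Both groups therefore carry the Cre recombinase driven by the Pdx1 promoter, which is active in the progenitors of acinar, duct and islet cells and in adult islets. Trip12 is an E3 ubiquitin ligase of the HECT class, and the comparison asks how gene expression differs where it is deleted. The labels call the preparations biological replicates but do not say whether each came from 1 animal or several, nor the age or sex.

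Ubiquitin is attached to proteins by a cascade of activating, conjugating and ligating enzymes, and deubiquitinases reverse that step. They trim chains at the proteasome, recycle free ubiquitin, rescue receptors from lysosomal breakdown and remove ubiquitin from histones and repair factors. Most USP enzymes are expressed at low to moderate levels in many tissues, while a few are restricted to testis or neurons.

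The libraries held 31019500 to 34041901 gene counts. For Trip12 itself, controls 1, 2 and 3 had 29.0, 22.3 and 26.4 normalised CPM (counts scaled to a common library size), and knockouts 1, 2 and 3 had 14.4, 14.7 and 13.0 CPM. The log2 fold change was -0.89 (SE 0.14) with an adjusted p of 0.0256, from the quasi-likelihood test of edgeR after Benjamini-Hochberg adjustment over 13115 genes. That call was lost with library totals as scaling (-0.49, adjusted p 0.124), with sex as a covariate (-1.05, adjusted p 0.0940), and on leaving out any 1 library other than control 1 (-0.98 to -0.84), all by edgeR. Acinar markers dominated every library, and the 10 genes of that list summed to between 432423 and 587203 CPM in control and between 361608 and 371133 CPM in knockout, without overlap. The 10 duct markers summed to 221, 222 and 253 CPM in the controls against 310, 210 and 319 in the knockouts. With the replicate block 7 of them were called, 5 higher and 2 lower, against 3.39% higher and 2.58% lower of all tested genes. The part of these cell types in the deubiquitinase values was not tested. The 39 digestive enzyme genes held 80.9% to 83.6% of gene counts in control and 77.5% to 78.0% in knockout. Leukocyte markers (12 genes, none at 0 in all libraries) summed to 93.5, 23.6 and 19.2 CPM in the controls against 67.2, 16.7 and 61.5 in the knockouts. Stromal and endothelial markers (10 genes, none at 0 in all libraries) summed to 137, 25.8 and 39.3 CPM in the controls against 138, 35.2 and 85.9 in the knockouts. Xist was at 86.9 and 88.6 CPM in control replicates 2 and 3 and at most 0.14 CPM in the other 4 libraries. Female libraries thus occurred only among the controls, and sex and genotype are partly confounded. In every fit with sex as a covariate, the genotype difference therefore rests on the knockouts against control replicate 1, the only male control. In bulk libraries such as these, fewer cells of a type and less RNA per cell cannot be told apart.

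Start-site sequences are given for the genes on which the results turn: Usp48 and Usp20, the pair that passed the test once libraries were paired by replicate number, Uchl5, the most abundant of the genes that were nominally lower, and Usp2, a gene known as an output of the circadian clock. Each runs from 250 bases before to 50 after the start site and comes from RefSeq on build GRCm38.p6, in which 54 of the 69 genes had an entry. Capitals mark matches on either strand to 5 motifs. One is the E-box, CACGTG, through which clock and Myc proteins are known to act. The GC box, GGGCGG, is the known site of Sp-family factors at promoters without a TATA box. The core promoter motif called the TATA box was searched as TATAAA, and the site of the factor NF-Y by its name letters CCAAT. The cAMP response element was searched as TGACGTCA. No motif of this list contains another.
Usp48 (chr4:137593922-137594221, plus strand): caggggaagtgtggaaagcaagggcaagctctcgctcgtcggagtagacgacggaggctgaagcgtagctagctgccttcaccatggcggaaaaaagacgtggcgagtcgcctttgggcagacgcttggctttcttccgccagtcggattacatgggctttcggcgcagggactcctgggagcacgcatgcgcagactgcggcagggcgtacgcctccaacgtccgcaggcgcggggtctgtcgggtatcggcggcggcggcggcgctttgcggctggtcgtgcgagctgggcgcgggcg
Usp20 (chr2:30982029-30982328, plus strand): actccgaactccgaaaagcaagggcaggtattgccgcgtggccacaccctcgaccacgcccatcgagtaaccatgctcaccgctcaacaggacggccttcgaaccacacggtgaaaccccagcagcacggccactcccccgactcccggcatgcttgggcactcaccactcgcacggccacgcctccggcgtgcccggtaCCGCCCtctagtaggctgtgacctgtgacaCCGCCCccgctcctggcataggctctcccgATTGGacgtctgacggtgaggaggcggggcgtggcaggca
Uchl5 (chr1:143777028-143777327, plus strand): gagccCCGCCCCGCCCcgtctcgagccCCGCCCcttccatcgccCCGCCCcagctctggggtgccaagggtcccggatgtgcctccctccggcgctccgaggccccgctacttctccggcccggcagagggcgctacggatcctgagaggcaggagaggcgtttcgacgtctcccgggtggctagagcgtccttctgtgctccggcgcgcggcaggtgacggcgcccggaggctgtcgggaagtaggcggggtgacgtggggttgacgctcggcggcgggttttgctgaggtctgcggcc
Usp2 (chr9:44084670-44084969, plus strand): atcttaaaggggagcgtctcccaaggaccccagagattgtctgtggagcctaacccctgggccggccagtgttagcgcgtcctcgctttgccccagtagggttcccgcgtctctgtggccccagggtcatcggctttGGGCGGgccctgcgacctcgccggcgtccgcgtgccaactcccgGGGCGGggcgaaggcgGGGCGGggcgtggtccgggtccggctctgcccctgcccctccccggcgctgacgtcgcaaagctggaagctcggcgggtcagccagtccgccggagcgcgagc
The Usp48 window held none of the 5 motifs. The Usp20 window held 2 GC boxes and 1 CCAAT box, the Uchl5 window 4 GC boxes, 2 of them overlapping, and the Usp2 window 3 GC boxes. Over the 27025 genes with an entry, 35.9% held a GC box in this window, 37.9% a CCAAT box and 7.24% an E-box, while 14.2% held a TATA box and 1.88% a cAMP response element. Of the 54 deubiquitinase genes, 33 held a GC box, 16 a CCAAT box, 7 an E-box, 5 a TATA box and 2 a cAMP response element. A match is a description of the letters only.

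Of the 69 genes, 53 had enough counts to be tested. Levels between genes were compared as CPM per kilobase of exon, with the mean and SD over all 6 libraries. Exon lengths came from GENCODE M21, while the annotation behind the counts is not given, and the order depends on those lengths. Before the division by length, Usp19 averaged 33.1 CPM over controls and Otud3, with 1.668 kilobases of exon, 13.2 CPM. Otud3, an OTU-family enzyme, had the highest level at 8.62 CPM per kilobase ± 1.43 (SD, n = 6). Uchl5, the UCH enzyme bound to the proteasome, followed at 6.19 ± 1.49, then Usp19, which has a form anchored in the endoplasmic reticulum membrane, at 5.29 ± 0.777. Usp8, which acts on receptors at endosomes, was at 4.70 ± 0.569 and Otub1, which also inhibits ubiquitin-conjugating enzymes, at 4.13 ± 0.430. The ranges of neighbours in this order overlapped, so none of these 5 separated from the next beyond the spread over libraries. Usp48 ranked 10 at 2.61 ± 0.526 and Usp20 ranked 41 at 0.758 ± 0.178. Among tested genes the lowest level was that of Usp35, at 0.105 ± 0.0544.

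**Figure D1:**
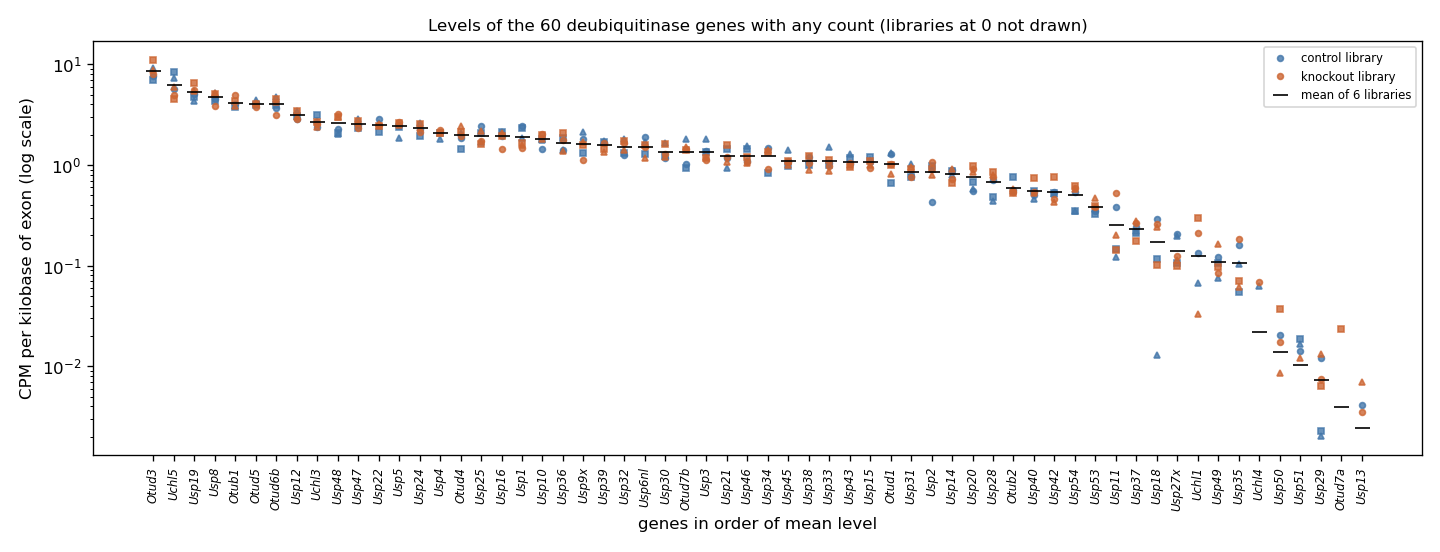
Mean level of the 60 deubiquitinase genes with any count, as CPM per kilobase of exon on a log scale, with control libraries in blue, knockout libraries in orange and circles, squares and triangles for replicates 1, 2 and 3. Levels run from 8.62 for Otud3 down to genes with a handful of counts, and control and knockout points lie mixed for most genes.

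The other 16 genes stayed untested for low counts, and 9 of these had 0 counts in all 6 libraries. The 9 were Usp17la, Usp17lb, Usp17lc, Usp17ld and Usp17le, the X-linked Usp26 and Otud6a, Usp44, and the Y-linked Usp9y. A count of 0 allows up to 3 counts, or 0.0803 to 0.123 CPM depending on the library, and this limit covers counting error only. Reads placed in several positions were not counted, so the limit does not cover reads shared between similar genes, such as those named Usp17l. Usp9y was at 0 also in the 4 libraries with Y-linked transcripts. The neuronal and endocrine enzyme Uchl1 had 7, 0 and 3 counts in the controls against 13, 17 and 2 in the knockouts. Islet markers (14 genes, none at 0 in all libraries) summed to 481, 466 and 367 CPM in the same controls and to 943, 680 and 253 CPM in the same knockouts. Knockouts 1 and 2 had the most Uchl1 counts and the most islet RNA, but in opposite order. Control replicate 2, at 466 CPM of islet markers, had 0 Uchl1 counts. The part of islet cells in the Uchl1 counts was not tested. Usp29 had 1 to 9 counts per library, and Usp13, Usp50, Usp51, Uchl4 and Otud7a had at most 4.

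No deubiquitinase gene was called at an adjusted p under 0.05 without pairing, by the quasi-likelihood test of edgeR adjusted over all genes. The background was 0.945% of the 13115 genes tested. The smallest adjusted p was 0.0827, for Usp48. At an unadjusted p under 0.05, 5 genes were higher in knockout (Usp48, Usp20, Usp28, Usp54 and Usp19) and 3 lower (Usp1, Uchl5 and Usp3), of 53. The background at that threshold was 8.43% higher and 8.29% lower. In 7 genes every knockout library lay above every control, the 5 just named with Usp10 and Usp53, and in 2, Usp1 and Usp3, below, against 11.9% and 11.0% of all genes. The family's counts were thus near the background or under it.

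Pairing libraries by replicate number, as a block in the fit, let 2 of the 53 genes pass, Usp48 and Usp20, both higher (edgeR with the block; background 3.39% higher and 2.58% lower). The DESeq2 Wald test without a block called Usp48 alone (background 4.52%), and limma-voom called none. Scaling by library totals instead of TMM factors moved the median over all genes from 0.02 to 0.43 (log2), and 4 genes were called, all higher: Usp10, Usp19, Usp20 and Usp48 (background 11.1% higher). The family moved with that shift, with a median of 0.44 over its 53 genes under library totals and 0.03 with TMM factors.

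Fold changes in the family were small. The largest absolute log2 fold change was 0.59, and the median absolute value was 0.19 over the 53 genes and 0.26 over all tested genes. The 95% interval lay inside a 2-fold change in either direction for 46 of 53 genes, and for 59.5% of all tested genes. The exceptions were Usp11, Usp18, Usp27x, Usp35 and Usp49, and Usp28 and Usp54, whose upper bounds were 1.06 and 1.001. Inside 1.5-fold lay 23 of the 53. The median SD within groups was 0.20 log2 CPM over the family and 0.26 over all tested genes, whose median level was lower at 4.84 CPM against 10.2 CPM. For most deubiquitinase genes a 2-fold difference between the groups therefore lies outside the interval.

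**Figure D2:**
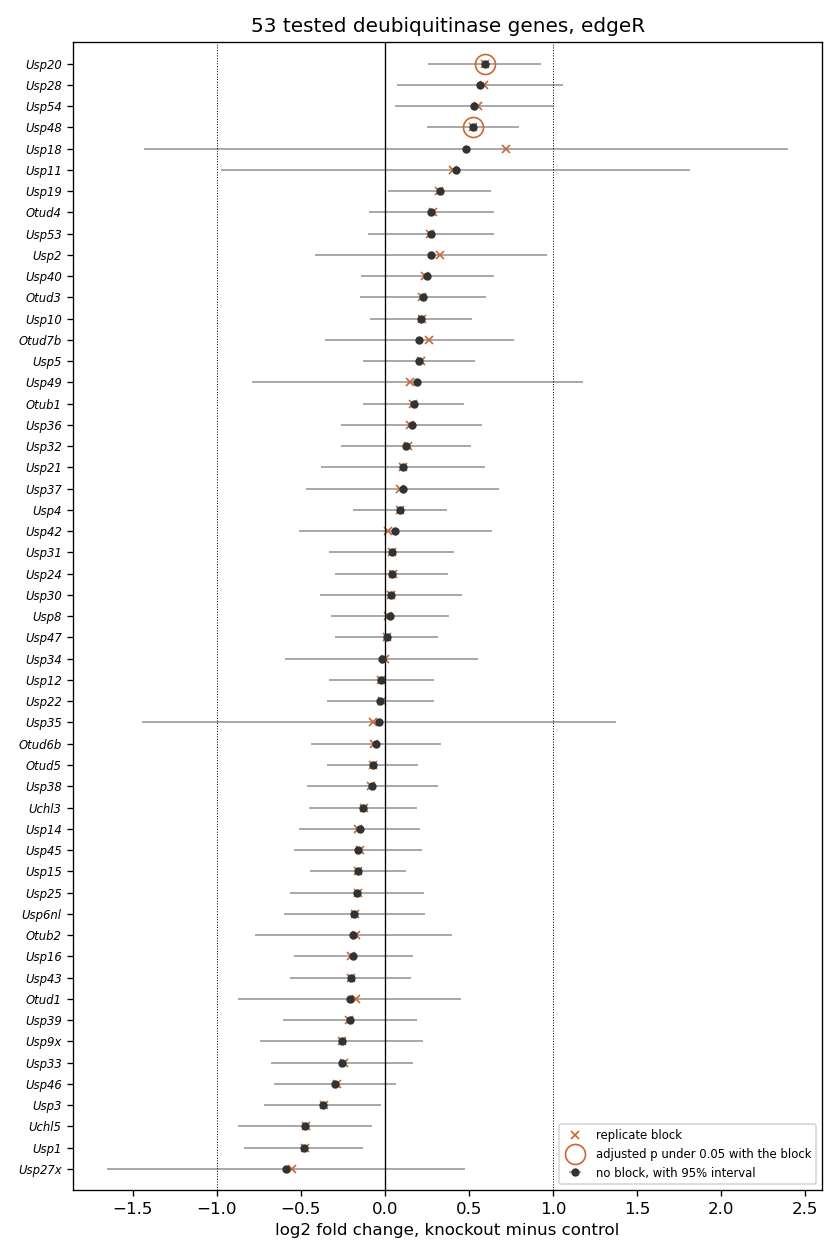
Log2 fold change, knockout minus control, of the 53 tested genes, with 95% intervals from edgeR without a block (black) and the value with the replicate block (orange crosses, circled where the adjusted p is under 0.05). Dotted lines mark 2-fold, and only Usp48 and Usp20 are circled, both on the side of higher values in knockout.

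Usp48 (ENSMUSG00000043411), a nuclear enzyme that acts on histone H2A and on the NF-kB subunit RelA, stood at 22.3, 20.03 and 19.8 CPM in controls 1, 2 and 3, against 31.1, 29.2 and 29.1 CPM in the knockouts. All 3 knockouts were above all 3 controls, with a gap larger than the spread within either group. The means were 20.7 CPM ± 1.38 (SD, n = 3) and 29.8 CPM ± 1.08, and the log2 fold change was 0.52 (SE 0.12, 95% interval 0.25 to 0.80). The adjusted p was 0.0827 in edgeR's quasi-likelihood test, 0.0351 with the replicate block, 0.00444 in the DESeq2 Wald test and 0.411 with sex as a covariate. With library totals as scaling the log2 fold change was 0.93 (adjusted p 0.0256, edgeR without a block). The call thus depended on pairing, on the tool and on the scaling.

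Usp20 (ENSMUSG00000026854) and Usp33 are related enzymes that act on internalised receptors and are known as substrates of the von Hippel-Lindau ligase. Usp20 had 4.97, 6.16 and 5.23 CPM in the controls against 8.27, 8.76 and 7.64 in the knockouts, with no overlap. Its control mean was 5.45 CPM ± 0.623 (SD, n = 3) and its knockout mean 8.22 ± 0.561, with a log2 fold change of 0.59 (SE 0.15, 95% interval 0.26 to 0.93). The adjusted p was 0.107 in the edgeR quasi-likelihood test, 0.0463 with the block and 0.0845 in the DESeq2 Wald test. With library totals the log2 fold change was 1.01 (adjusted p 0.0211, edgeR without a block). It was 0.72 (SE 0.21) with sex as a covariate, a fit that rests on control replicate 1 as the only male control. Counts of a single strand orientation gave 0.44 (forward) and 0.76 (reverse). Usp33 had 10.1, 9.73 and 14.6 CPM in the controls against 9.37, 10.9 and 8.47 in the knockouts, overlapping ranges with a log2 fold change of -0.26 (SE 0.19, adjusted p 0.543 in the same edgeR test). The blocked calls of Usp48 and Usp20 were both lost when any 1 of the 3 numbered pairs was left out, with adjusted p from 0.0629 to 0.279 for Usp48 and from 0.0666 to 0.271 for Usp20 (edgeR with the block). The log2 fold changes in those fits, which have fewer libraries, were 0.51 to 0.53 for Usp48 and 0.51 to 0.64 for Usp20.

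Of the 9 tested genes with roles in DNA repair and replication, a list that includes Usp48, 7 had a positive and 2 a negative log2 fold change. Of all 13115 tested genes, 6864 were positive. At an unadjusted p under 0.05, Usp48 and Usp28 were higher and Usp1 lower, against 8.43% and 8.29% of all tested genes (edgeR). Only Usp48 was called with the block, against 3.39% of all tested genes called higher. Usp28, a partner of the damage protein 53BP1 that stabilises Myc, had 4.12, 2.83 and 2.58 CPM in the controls against 4.47, 5.02 and 4.66 in the knockouts. Control replicate 1 lay close to the knockouts and the other controls well below. The log2 fold change was 0.57 (SE 0.22, adjusted p 0.244, edgeR). With sex as a covariate, a fit that sets the knockouts against control replicate 1 alone, it was 0.19 (SE 0.25). Usp1, which removes ubiquitin from PCNA and FANCD2, had 9.16, 8.62 and 6.86 CPM in the controls against 5.54, 6.16 and 5.95 in the knockouts, without overlap. Its log2 fold change was -0.48 (SE 0.16, adjusted p 0.178, edgeR) and -0.08 with library totals. Usp1 works with the cofactor Wdr48, which Usp12 and Usp46 also use. Usp12 averaged 14.6 CPM ± 1.39 (SD, n = 3) over controls and 14.4 ± 1.54 over knockouts, Usp46 averaged 10.7 CPM ± 1.82 and 8.68 CPM ± 0.739, and their ranges overlapped. Of the other genes of this role, Usp10 had log2 fold change 0.22 (SE 0.13), and its groups did not overlap.

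The enzymes bound to the proteasome are Usp14 and Uchl5, the latter docked through the ubiquitin receptor Adrm1. Uchl5 (ENSMUSG00000018189) had 16.8, 24.7 and 21.6 CPM in the controls against 14.6, 13.2 and 17.5 in the knockouts. The groups overlapped through control replicate 1, and the log2 fold change was -0.47 (SE 0.18, adjusted p 0.230, edgeR), or -0.04 with library totals and -0.15 with sex as a covariate. Adrm1 averaged 18.7 CPM ± 2.59 (SD, n = 3) over controls and 13.3 ± 1.55 over knockouts, a log2 fold change of -0.49 (SE 0.15, adjusted p 0.164, edgeR), or -0.06 with library totals and -0.26 with sex as a covariate. Usp14 had 7.40, 7.35 and 6.65 CPM in the controls against 6.13, 5.59 and 7.56 in the knockouts, with knockout replicate 3 above all controls. None of the 3 passed the threshold, with or without the block.

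The list of histone and chromatin enzymes (8 of 10 tested) leaves out Usp48, which was counted with the DNA repair genes. None of the 8 was called in either direction, with or without the block. Their median log2 fold change was 0.02 over values from -0.59 to 0.19. Usp48, which also acts on histone H2A, lay above that range at 0.52 and was called with the block. Usp3, which acts on histone H2A, had 9.38, 9.19 and 12.4 CPM in the controls against 7.71, 8.01 and 8.25 in the knockouts. The groups did not overlap, and the log2 fold change was -0.37 (SE 0.15, adjusted p 0.273, edgeR), or 0.05 with library totals. Usp22, the H2B enzyme of the SAGA complex, averaged 12.4 CPM ± 1.80 (SD, n = 3) over controls and 12.2 ± 0.338 over knockouts, with an interval of -0.35 to 0.29. Among its SAGA partners, Atxn7 rose with the block, from 11.5 CPM ± 2.57 (SD, n = 3) to 18.7 CPM ± 1.92 (blocked log2 fold change 0.71, SE 0.16, adjusted p 0.0234, edgeR with the block; 0.107 without). Eny2 averaged 11.8 CPM ± 1.39 and 8.22 CPM ± 1.70 (log2 fold change -0.52, adjusted p 0.198, edgeR, or -0.10 with library totals) and Atxn7l3 had a log2 fold change of -0.04 (SE 0.13).

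**Figure D3:**
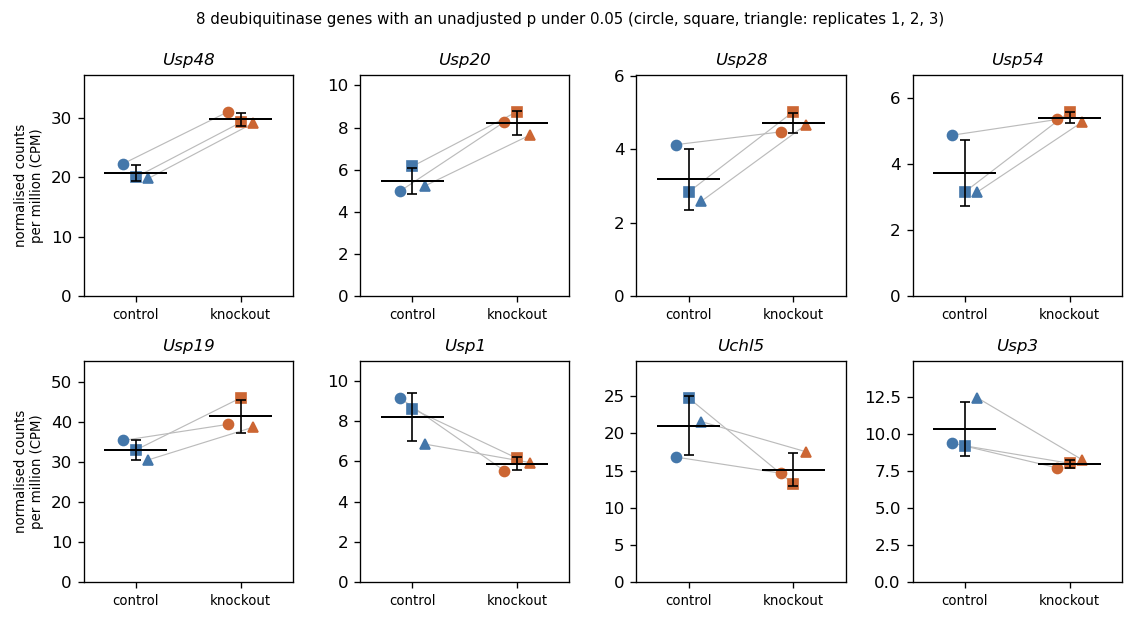
Normalised CPM in each library for the 8 genes with an unadjusted p under 0.05, with circles, squares and triangles for replicates 1, 2 and 3, grey lines joining equal replicate numbers, and bars for the mean and SD of 3. In Usp28, Usp54 and Uchl5 control replicate 1 lies nearer to the knockouts than the other controls do, while in Usp48 and Usp20 the groups stand apart.

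With TMM factors, no enzyme of endosomes, the endoplasmic reticulum or mitochondria was called except Usp20, with the block. With library totals and no block, Usp19 and Usp20 were called (background 11.1% higher). Usp19 had 35.5, 33.1 and 30.6 CPM in the controls against 39.5, 46.1 and 38.8 in the knockouts. All knockouts were above all controls, with a log2 fold change of 0.33 (SE 0.13, adjusted p 0.273, edgeR; 0.0375 with library totals). Usp8 had 18.8, 18.0 and 21.7 CPM in the controls against 16.2, 21.5 and 22.0 in the knockouts, overlapping, with an interval of -0.32 to 0.38. Usp30, which sits on the outer membrane of mitochondria, averaged 8.14 CPM ± 1.61 (SD, n = 3) and 8.34 CPM ± 1.39.

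Usp39 is a family member whose protease domain is inactive and which acts as a splicing factor. Usp53, a tight junction protein, and Usp54 were read beside it. Usp54 had 4.88, 3.16 and 3.16 CPM in the controls against 5.35, 5.59 and 5.28 in the knockouts, a log2 fold change of 0.53 (SE 0.21, adjusted p 0.252, edgeR). Control replicate 1 again lay near the knockouts. With sex as a covariate, a fit in which that replicate is the only male control, the value was 0.15 (SE 0.22). Exons of Usp54 overlap the antisense gene 2810402E24Rik in the annotation, which had 20, 22 and 15 counts in the controls against 48, 37 and 57 in the knockouts, and the counting used does not separate strands, so the Usp54 value is uncertain. Counts of a single strand orientation gave it a log2 fold change of 0.38 (forward) and 0.54 (reverse). Exons of Usp40, Usp16, Usp14 and Usp37 also overlap genes on the opposite strand that had 92 or more counts in every library (Dgkd, Cct8, Thoc1 and Cnot9), as do those of Usp34 with Ahsa2 at 69 or more, and their values carry the same uncertainty. Usp53 averaged 4.33 CPM ± 0.257 (SD, n = 3) and 5.23 CPM ± 0.624, without overlap (adjusted p 0.454, edgeR). Usp39 averaged 4.17 CPM ± 0.130 and 3.61 CPM ± 0.396.

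Signalling enzymes were described by level. Usp4 and Usp15, related enzymes with roles in TGF-beta signalling, averaged 17.4 and 18.7 CPM over controls, with 18.5 and 16.7 over knockouts, with intervals of -0.19 to 0.37 and -0.44 to 0.12. The OTU enzymes linked to NF-kB or interferon signalling, Otub1, Otub2, Otud1, Otud4, Otud5 and Otud7b, had log2 fold changes between -0.21 and 0.28, none called. Otud3 had 12.8, 11.7 and 15.2 CPM in the controls against 13.3, 18.4 and 14.8 in the knockouts, overlapping. Usp18, which removes the ubiquitin-like protein ISG15 and is induced by interferon, had 26, 8 and 1 counts in the controls against 27, 10 and 25 in the knockouts. For 18 interferon response genes the summed CPM was 29.5, 17.1 and 17.0 in the controls against 40.0, 30.5 and 32.3 in the knockouts. That list had 13 tested genes, all with a positive log2 fold change, where 6864 of all 13115 tested genes were positive. None was called without the block, with 6 at an unadjusted p under 0.05, all higher, and 4 were called higher with it, against 3.39% of all tested genes (edgeR). Its part in the Usp18 counts was not tested. The Usp18 log2 fold change was 0.48 with an interval of -1.43 to 2.40, and -0.54 with sex as a covariate, so neither its direction nor its size was resolved over these libraries.

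The X-linked genes were examined because the control group held both sexes. Usp9x, an essential enzyme with known tumour-suppressive roles in the pancreas, had 27.3, 19.9 and 31.9 CPM in the controls against 16.9, 23.8 and 25.6 in the knockouts. The female controls, replicates 2 and 3, were the lowest and the highest of the controls. Its log2 fold change was -0.26 (SE 0.21, adjusted p 0.611, edgeR), and -0.31 (SE 0.31) with sex as a covariate. Otud5 had 21.3, 20.7 and 23.2 CPM in the controls against 19.5, 21.0 and 21.5 in the knockouts, one of the narrowest spreads in the family, with an interval of -0.34 to 0.20. Usp27x had 11 to 28 counts per library and a log2 fold change of -0.59 (SE 0.47), the lowest of the family but with an interval that includes 0.

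Usp11, also X-linked, followed the replicate number more than the genotype. Its SE was 0.61 without the block and 0.36 with it. It had 1.79, 0.698 and 0.581 CPM in the controls against 2.49, 0.685 and 0.965 in the knockouts, and both replicates numbered 1 stood above the other 4 libraries. Its log2 fold change was 0.42 (SE 0.61), -0.32 without knockout replicate 1 and -0.38 with sex as a covariate. The replicates numbered 1 also held the most leukocyte and stromal marker RNA, by the sums given above. The part of those cells in the Usp11 counts was not tested.

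Usp2 (ENSMUSG00000032010), a rhythmic gene in many tissues, had 2.05, 4.72 and 4.36 CPM in the controls against 5.14, 4.42 and 3.83 in the knockouts. Control replicate 1 stood below the other 5 libraries, and the groups otherwise overlapped. The log2 fold change was 0.27 (SE 0.30, adjusted p 0.722, edgeR), -0.05 without control replicate 1 and 1.12 (SE 0.29, adjusted p 0.255, edgeR) with sex as a covariate, a fit that rests on that replicate as the only male control. Among 17 clock genes, 16 were tested and Per2 was called higher (1.76 CPM ± 0.267 against 4.84 CPM ± 1.39, SD, n = 3; adjusted p 0.0433, edgeR; 0.228 with sex as a covariate), and with the block also Per3, Cry1, Cry2 and Bmal1. The background was 0.945% of all tested genes called without the block and 3.39% called higher with it. Of the 16 tested clock genes, 13 had a positive and 3 a negative log2 fold change, the lowest at -0.65. Of all 13115 tested genes, 6864 were positive. In the controls Per2 stood at 1.48, 2.01 and 1.78 CPM. The labels give no time of day, and its part was not tested.

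Related genes were also compared as ratios within a library, which do not depend on how libraries are scaled. For 12 pairs this was done as log2 count ratios with 0.5 added, with exact permutation tests (two-sided), which cannot go below p = 0.1 with 3 against 3, and none reached an adjusted p under 0.3. The Usp20 to Usp33 ratio was -1.02, -0.66 and -1.47 in the controls against -0.18, -0.32 and -0.15 in the knockouts, a difference of 0.83 without overlap (exact permutation p = 0.1, adjusted over 12 pairs 0.3). The Usp28 to Usp25 ratio was -1.62, -1.92 and -1.77 in the controls against -1.02, -0.75 and -1.28 in the knockouts, a difference of 0.75 without overlap (exact permutation p = 0.1, adjusted 0.3). The Usp46 to Usp12 and Usp27x to Usp22 ratios were lower in every knockout, by -0.26 and -0.51 on average, with the same exact permutation p, though in each the closest control and knockout nearly met. The Usp16 to Usp45 and Usp38 to Usp35 ratios differed by -0.06 and 0.001.

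**Figure D4:**
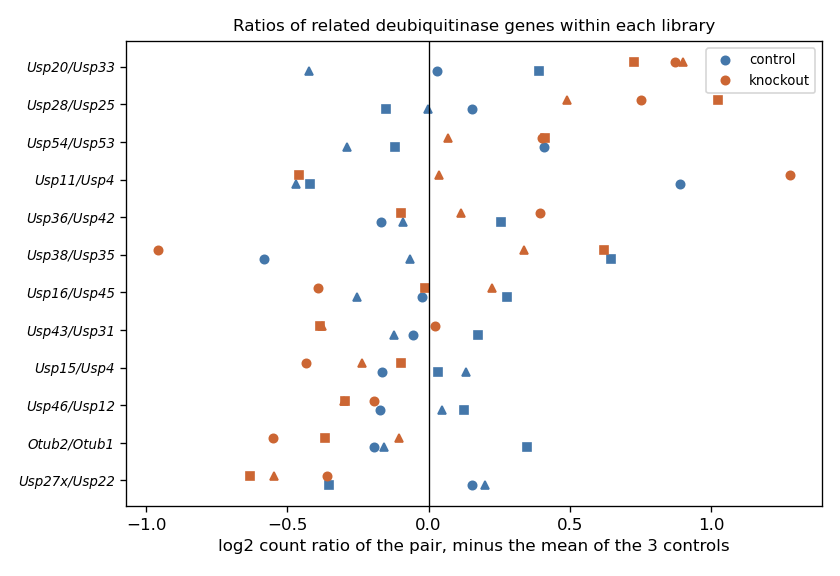
Log2 count ratio of 12 pairs of related genes in each library, minus the mean of the 3 controls, with control libraries in blue, knockout libraries in orange and circles, squares and triangles for replicates 1, 2 and 3. The Usp20 to Usp33 and Usp28 to Usp25 ratios are higher in all 3 knockouts than in any control, and the Usp11 to Usp4 ratio is highest in both replicates numbered 1.

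The family as a whole held 0.0598%, 0.0442% and 0.0509% of gene counts in control and 0.0684%, 0.0715% and 0.0705% in knockout. The difference of 0.0185 percentage points had an exact two-sided permutation p of 0.1, the smallest that 3 against 3 allows. Against counts outside the digestive enzymes the shares were 0.313%, 0.269% and 0.287% over the controls against 0.307%, 0.326% and 0.313% over the knockouts, and the groups overlapped (exact permutation p = 0.2).

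Other genes of the pathway were read from the same fit. Of 58 genes, namely 32 other deubiquitinases and proteases of ubiquitin-like proteins, 11 partners and 15 ubiquitin, ubiquitin-like and activating-enzyme genes, none was called without the block (edgeR), and at an unadjusted p under 0.05 there were 4 higher and 4 lower, against 8.43% and 8.29% of all tested genes. Under the block 2 of the 58 rose, against 3.39% of all tested genes, Atxn7 and Pan2, a deadenylase subunit with a USP-like domain, which averaged 12.3 CPM ± 1.34 (SD, n = 3) over controls and 20.4 ± 6.35 over knockouts (adjusted p 0.0223, edgeR with the block; 0.160 without). DESeq2 called 2 of the 58, against 4.52% of all tested genes. Ubb, a polyubiquitin gene, had log2 fold change 0.16 (SE 0.14). The median log2 fold change of the 58 was -0.04, against 0.03 in the 53 deubiquitinase genes and 0.02 in all tested genes.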

How the data were processed

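The authors deposited 1 table per library of raw whole-number counts per gene, for all reads and for each strand, with no header. Per the submitters' processing notes, STAR 2.7.10a and the mouse builds GRCm39 and mm39 were named, without a role; the annotation is not given in the sources used here. The 4 rows outside genes (unmapped reads 9.70% to 13.0% of all reads, reads placed in several positions 21.6% to 28.4%, outside genes 0.893% to 2.18%, ambiguous 3.29% to 3.63%) stayed out of library sizes and tests. Symbols, gene classes and exon lengths came from GENCODE M21 (GRCm38), which held 52081 (94.0%) of the identifiers and at least 99.8% of counts. Since that build differs, gene coordinates were used only within that annotation, for exon lengths and for overlaps between genes. The promoter coordinates are those of RefSeq on GRCm38.p6.

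Unstranded counts were tested with edgeR 4.0.16 in R 4.3.3: filterByExpr (13115 genes), TMM factors, robust quasi-likelihood fit, F test, Benjamini-Hochberg adjustment over all genes, called at an adjusted p under 0.05. SE is the log2 fold change over the root of F. CPM used TMM library sizes. DESeq2 1.42.0 and limma-voom (limma 3.58.1) were alternatives, and scripts were tested on simulated data. Replicate numbers were used to pair the samples, although the labels do not say that same-numbered samples belong together. In these same data, deviations from group means correlated at 0.63, 0.45 and 0.28 in the 3 same-numbered pairs. Differently numbered pairs ran from -0.50 to 0.21, the highest being control 3 with knockout 2. Deviations cancel within each group, so a high correlation in some pairs lowers that in others. These values therefore cannot show that the numbers mark true pairs. p-values measure the spread between these preparations. Count floors cover counting error only, since reads carry no molecular identifiers.

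Members, lists and alternatives were chosen with earlier results of these data known. Named genes were those called with or without the block, the 5 largest rises and 5 largest falls among genes whose higher group averaged 1 CPM or more, the 5 highest levels per kilobase, tested X-linked and Y-linked genes, and their relatives. Other genes named, the pairs and the motifs were chosen after values were seen. One gene of the name pattern is not reported here.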

Additional observations from a re-analysis of the deposited data

How the results depend on the processing

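With 3 libraries a group, intervals were wide for Usp11, Usp18, Usp27x, Usp35 and Usp49, and sex is partly confounded with genotype. No family member was called with RLE factors, enzymes left out of scaling, limma-voom, either strand's counts, no robust step, either other filter, the sex covariate or any 1 library left out. Of the 53 tested family genes 0 were called, and 1 with DESeq2, 2 with the replicate block and 4 with library totals, all higher. With block and totals together 16 were called, all higher, against 3124 higher and 136 lower of all 13115 tested genes. Shares of all tested genes were 4.52% with DESeq2, 3.39% higher with the block and 11.1% higher with library totals. Among the 58 other pathway genes 0 were called, and 2 with DESeq2, 3 with no filter and 2 with the replicate block. The count was 6 with library totals and 10 with both. Over fits that left out a library or pair it ran from 0 to 3. Over all genes 124 were called, and 593 with DESeq2 (259 higher, 334 lower), 850 with no filter (477 and 373), 210 at 10 counts in every library, 1528 with library totals (1451 and 77), 784 with the replicate block (445 and 339), 3260 with block and totals, and 21 with the sex covariate. Leaving out 1 library or pair gave 20 to 837. By library left out, the count was 461 for control 1, 20 for control 2, 54 for control 3, 27 for knockout 1 and 24 for knockout 3, and by pair left out of the block fit 396 for pair 1 and 837 for pair 3. The Trip12 log2 fold change lost its call with library totals (-0.49), with block and totals (-0.46), with the sex covariate (-1.05), and in 5 of the 6 fits that left out a library, all but that without control replicate 1. Over those 6 fits it ran from -0.98 to -0.82, and over block fits without a pair from -1.02 to -0.81, the call being lost without pair 2. The block fits with totals or without a pair were chosen after seeing the data. With the replicate block, calls among acinar markers went from 0 to 4 of 10 tested genes (1 higher, 3 lower). Duct markers went from 0 to 7 of 10 (5 higher, 2 lower) and islet markers from 0 to 1 of 14 (higher). Leukocyte markers went from 0 to 5 of 9 (4 higher, 1 lower). Digestive enzymes went from 2 of 39, all higher, to 11 (3 higher, 8 lower). The background with the block was 3.39% higher and 2.58% lower of all tested genes.

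Over 24 named genes, 472 of 527 alternative values kept direction and side of the threshold, 15 crossed it and 40 changed sign. Library totals, which move the median of all genes from 0.02 to 0.43, gave the sign changes Usp3 0.050, Usp46 0.14, Usp33 0.16, Otud5 0.34, Usp9x 0.14, Usp25 0.23, Usp12 0.40, Usp22 0.37 and Otub2 0.24, and with block and totals 0.062, 0.14, 0.18, 0.35, 0.17, 0.26, 0.40, 0.40 and 0.25. With the sex covariate Usp11 was -0.38, Usp46 0.0099 and Usp12 0.10. Reverse-strand counts gave -0.00049 for Usp8 and 0.011 for Usp12. With 1 library left out, Usp11 ran from -0.32 to 1.09, Usp8 from -0.048 to 0.16, Usp12 from -0.11 to 0.057, Usp22 from -0.14 to 0.043 and Usp2 from -0.047 to 0.48. With 1 pair left out of the block fit, sign changes reached 0.031 for Usp33, -0.097 for Usp8, 0.079 for Usp12, 0.054 for Usp22, 0.0030 for Otub2 and -0.16 for Usp2. The cause of these changes was not tested.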
